A study of Mus musculus with 4 samples.

Results

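The loss of Bcl11a averaged over both progenitor populations was described from all 4 arrays of 4 in the series, as the mean of the 2 log2 differences, Bcl11a-/- minus WT, in MPPs and in GMPs. Beside each mean stands the population spread, the absolute gap between the 2 differences divided by 2, written as ± and measured over n = 2 pairs of arrays, so that a mean far above its spread was of like size in both populations. Of 19938 annotated genes, the 10152 with a log2 signal of 6 or more on at least 1 array were ranked by the mean. MPPs, multipotent progenitors sorted as lineage-negative Sca-1+ c-Kit+ cells without CD150, still give rise to every blood lineage. GMPs, granulocyte-macrophage progenitors, give rise to granulocytes, monocytes and macrophages.

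There was 1 array for each of 4 groups, which were GMPs of genotype Bcl11a(+/+) (WT GMPs), GMPs of genotype Bcl11a(-/-) (Bcl11a-/- GMPs), WT MPPs and Bcl11a-/- MPPs. All 4 came from fetal liver chimeras, in which WT or Bcl11a-/- fetal liver cells had been given to lethally irradiated B6.SJL mice, and donor-derived cells were sorted from BM after 4 weeks per the labels, or 4 or 6 weeks per the study's methods. Irradiated recipients keep their own stroma. Cells were pooled by donor genotype, so that MPPs and GMPs of a genotype came from the same marrow and are not independent samples of that genotype. The question was which genes differed with the loss of Bcl11a in both populations, as distinct from genes whose difference came from 1 of them.

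Bcl11a encodes a zinc finger protein that represses transcription together with the NuRD complex. It is required for the earliest B cells and for plasmacytoid dendritic cells (pDCs), and in red cell precursors it keeps embryonic and fetal globin genes silent after the switch to adult hemoglobin. Its zinc fingers are known to recognise the letters TGACCA.

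Bcl11a itself had log2 signals of 8.60 (WT) and 7.77 (Bcl11a-/-) in GMPs and of 9.89 (WT) and 8.64 (Bcl11a-/-) in MPPs. The mean difference was −1.04 ± 0.21, with the Bcl11a-/- value lower in each population, but the level in Bcl11a-/- MPPs was about that in WT GMPs. Only the first exon is missing from the allele, and a probe elsewhere can still detect transcript, so that this is a weak check of the genotype labels. Of the markers that define the populations, Mpo, the myeloperoxidase of primary granules, lay between 11.34 and 12.13 on the 4 arrays, and the stem and progenitor regulator Meis1 was at 7.64 in WT MPPs and 7.68 in Bcl11a-/- MPPs against 6.12 and 6.37 in the GMPs. The other markers were less even. Elane, Prtn3, Ctsg and Ms4a3, further GMP granule and membrane genes, had differences from −2.68 to −2.25 in MPPs and from −0.17 to 0.07 in GMPs. Csf3r was at 0.26 in MPPs and 0.03 in GMPs. Among MPP markers, Flt3 was at −1.60 in MPPs and −0.28 in GMPs, and Hlf at 0.21 in MPPs and −0.73 in GMPs. Mecom was at 0.93 in MPPs and 0.29 in GMPs, with signals under 6 throughout. Markers of mature cells were on the arrays too. S100a8 of neutrophils lay between 12.92 and 13.03, and probe sets shared by the adult α-globin genes between 12.16 and 13.20, in all 4 groups. Their part in the results was not tested, and in pooled cells fewer cells of a type and less RNA per cell cannot be told apart.

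Hba-x, Vpreb3 and Spns2 were taken as the marks of a difference common to both populations. Hba-x, the embryonic ζ-like α-globin, had the highest mean difference of all ranked genes. Vpreb3, a chaperone-like partner of the pre-B cell receptor, was the third lowest, and Spns2, a transporter that exports sphingosine 1-phosphate, was over 2-fold higher in both populations with little gap. The 250 bases upstream of their start sites are shown because Bcl11a is a DNA-binding repressor. They are RefSeq sequences of build GRCm38.p6, each on its gene's own strand, for Hba-x at chr11:32276350-32276599 (plus strand), for Vpreb3 at chr10:75948050-75948299 (plus strand) and for Spns2 at chr11:72475028-72475277 (minus strand). Capitals mark TGACC, the first letters of the Bcl11a motif, or its reverse complement GGTCA.
Hba-x: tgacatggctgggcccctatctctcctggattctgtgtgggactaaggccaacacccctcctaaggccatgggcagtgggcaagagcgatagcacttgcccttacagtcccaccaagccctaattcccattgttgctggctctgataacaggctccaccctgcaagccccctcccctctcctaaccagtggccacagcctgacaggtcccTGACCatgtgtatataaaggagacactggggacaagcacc
Vpreb3: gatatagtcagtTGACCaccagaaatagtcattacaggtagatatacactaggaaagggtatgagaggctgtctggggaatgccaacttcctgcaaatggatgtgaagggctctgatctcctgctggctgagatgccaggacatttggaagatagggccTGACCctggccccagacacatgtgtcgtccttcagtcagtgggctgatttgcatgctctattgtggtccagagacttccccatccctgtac
Spns2: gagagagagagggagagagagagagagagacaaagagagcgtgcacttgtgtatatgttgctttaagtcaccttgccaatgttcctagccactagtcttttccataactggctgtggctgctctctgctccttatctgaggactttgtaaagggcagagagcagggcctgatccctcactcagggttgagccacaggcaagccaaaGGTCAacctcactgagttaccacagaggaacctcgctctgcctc
The Hba-x window held 1 match to TGACC, the Vpreb3 window 2 and the Spns2 window 1. The full TGACCA was present in the Hba-x window and at the earlier Vpreb3 match, and absent from the Spns2 window. On either strand, TGACC occurred in 32.8% of the 8198 such windows of ranked genes, in 42.1% of the 38 found among the 50 genes with the highest mean and in 28.6% of the 42 found among the 50 with the lowest. The longer TGACCA, which contains TGACC, was in 9.67% of all windows, 13.2% of those with the highest means and 9.52% of those with the lowest. AGATAA, known for GATA factors, was in 5.81%, 7.89% and 4.76%. CACCC, known for Klf factors, was in 56.6%, 71.1% and 47.6%. A match of letters is a description of the window and not a binding site.

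The mean difference was over 2-fold lower for 73 ranked genes (0.719%) and over 2-fold higher for 38 (0.374%). Only 16 were over 2-fold lower in both populations (0.158% of ranked genes), and 12 were over 2-fold higher in both (0.118%). The genes lower in both were led by early B lineage genes, and the genes higher in both by Hba-x. In limma with population as a block, 0 of 19938 genes (0%) had a Benjamini-Hochberg adjusted p under 0.05 and 1298 (6.51%) had an unadjusted p under 0.05, of which 688 were higher and 610 lower. The lowest adjusted p was 0.112, for Hba-x. In limma it passed after new quantile normalization (adjusted p = 0.00663) and lowess centring (0.0312). It also passed in a fit of ranked genes only (0.0257), where Ifi209 passed too at 0.0473. Both WT signals of Hba-x were under 6, so that it was ranked only through its Bcl11a-/- arrays. That pass therefore only describes the fit. Hba-x did not pass with signals under 5 set to 5 (0.577) or without the population block (0.647). Nor did it pass with median centring, the brightest probe set, or eBayes with trend or robust (0.091 to 0.127). No Hba-x signal was under 5, and its mean and spread with that floor were the same (3.48 ± 0.31). The adjusted p with the floor thus moved only through the values of other genes. The blocked fit has 1 residual degree of freedom, and limma adds 4.51 prior degrees of freedom estimated over all genes. Its p thus sets a mean against the gene's gap between populations of the same pooled marrow, combined with the gaps of all genes. It does not measure the spread between mice. The values below are therefore descriptions.

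The differences of the 2 populations were of the same sign for 56.3% of ranked genes. Over ranked genes, 2464 were higher in both, 3250 lower in both and 4424 of opposite sign, and the 2 differences correlated weakly (Pearson's r = 0.23, Spearman's rho = 0.18, across genes, which are not independent replicates). Differences had an SD of 0.49 in MPPs and 0.28 in GMPs. MPPs had 375 genes over 2-fold lower and 122 higher, and GMPs 39 and 51. The 28 genes over 2-fold the same way in both were 5.63% of the MPP genes and 31.1% of the GMP genes. Of the genes over 2-fold in MPPs 62.6% had the same sign in GMPs, and of those over 2-fold in GMPs 82.2% had the same sign in MPPs.

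**Figure D1:**
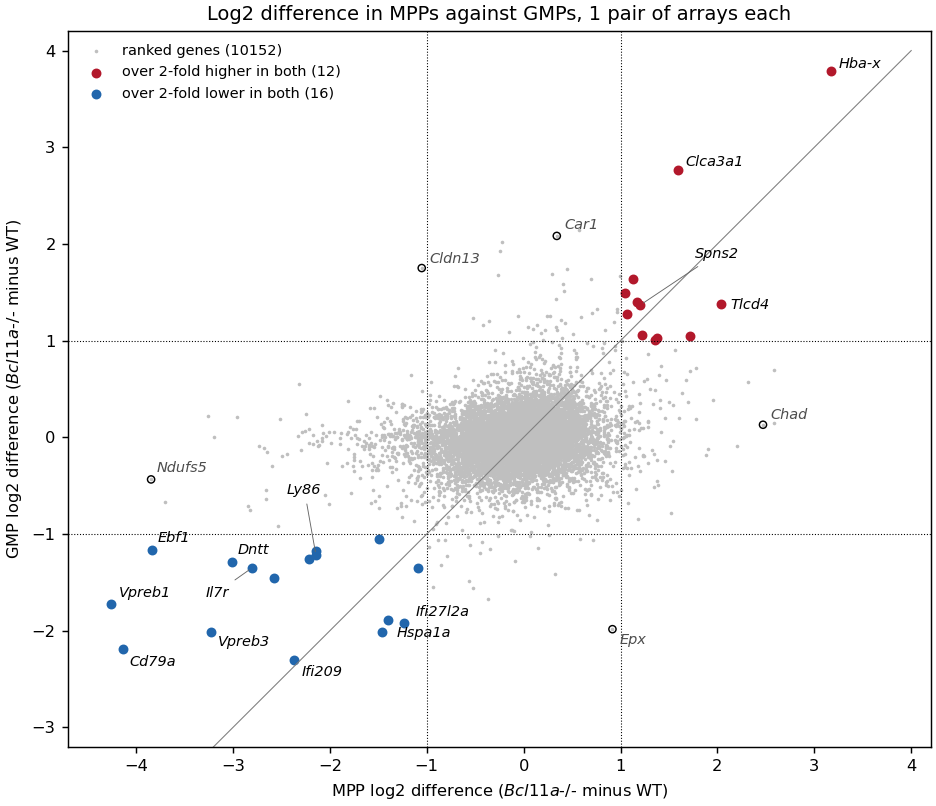
Log2 difference in MPPs (horizontal axis) against GMPs (vertical axis) for the 10152 ranked genes, with 12 genes over 2-fold higher in both in red, 16 over 2-fold lower in both in blue, and a few genes far from the diagonal as open circles. Dotted lines mark 2-fold and the diagonal marks equal differences; the cloud is wider along the MPP axis, with an SD of 0.49 against 0.28.

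Genes higher in both populations were led by Hba-x. Its log2 signal was 5.52 (WT) and 9.30 (Bcl11a-/-) in GMPs and 5.99 (WT) and 9.16 (Bcl11a-/-) in MPPs. Both WT arrays were below the ranking level of 6, both Bcl11a-/- arrays were above 9, and the groups did not overlap. The difference was 3.79 in GMPs (13.8-fold) and 3.17 in MPPs (9.02-fold), a mean of 3.48 ± 0.31 or 11.2-fold. The other globins measured alone did not share that size. Hbb-y, an embryonic β-like globin, was at 4.31 and 5.45 in WT and Bcl11a-/- GMPs and at 4.77 and 5.17 in the MPPs, a mean of 0.77 ± 0.37 at signals under 6 throughout (0.31 with a floor at 5, that is with signals under 5 set to 5). Hbb-bh1, the other embryonic β-like globin, had signals from 3.07 to 3.33 and a mean of −0.05 ± 0.03. The 2 probe sets shared by the adult genes Hba-a1 and Hba-a2 had means of −0.29 ± 0.51 and −0.26 ± 0.48, higher in Bcl11a-/- GMPs and lower in Bcl11a-/- MPPs, and those shared by the adult β-globins had means of −0.11 ± 0.25 and −0.27 ± 0.38. Of the 6 globin genes measured alone, Hba-x among them, 4 were higher in both and 2 lower in both, with a median mean of 0.58. Only 2 of the 6 were ranked, and Hbq1a, Hbb-bh1 and Hbb-bh2 had signals under 5 on all arrays.

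Clca3a1, a chloride channel accessory protein, came next by the mean. Its signal was 4.07 in WT and 6.83 in Bcl11a-/- GMPs, 5.49 in WT and 7.08 in Bcl11a-/- MPPs. The groups did not overlap, and the mean was 2.18 ± 0.59 or 4.52-fold. Tlcd4 had 3.67 and 5.05 in GMPs and 4.51 and 6.54 in MPPs, a mean of 1.71 ± 0.33; 3 of its 4 signals were under 6. With signals under 5 set to 5 its mean was 0.80 and its GMP difference 0.05, so that it was no longer over 2-fold in both. Spns2 had 7.15 and 8.52 in GMPs and 7.90 and 9.11 in MPPs. Its WT MPP value lay below its Bcl11a-/- GMP value, so that the groups did not overlap, and its mean of 1.29 ± 0.08 or 2.44-fold had one of the smallest gaps. Mfsd2b, which exports sphingosine 1-phosphate from red cells and platelets, was the other gene of that pathway with a mean over 2-fold (1.17 ± 0.47). The receptor S1pr1 had a mean of 0.50 ± 0.30 and the kinase Sphk1 0.42 ± 0.34, and over the 18 measured genes of sphingosine 1-phosphate and lysophospholipid signaling the median was 0.08.

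The remaining genes over 2-fold higher in both populations were of varied function. They were the RNA-binding protein Rbpms2 (mean 1.38 ± 0.26), the melanocortin receptor Mc5r (1.38 ± 0.34), the hypoxia-inducible factor subunit Hif3a (1.29 ± 0.12), the nonmuscle myosin heavy chain Myh10 (1.27 ± 0.22), the complement regulator Cd55 (1.20 ± 0.17), the vesicular monoamine transporter Slc18a2 (1.18 ± 0.17), the metallothionein Mt2 (1.17 ± 0.11) and the interferon-inducible GTPase Iigp1 (1.14 ± 0.08). Mt2 was the brightest of them, at 8.99 and 10.27 in WT and Bcl11a-/- GMPs and at 10.96 and 12.02 in WT and Bcl11a-/- MPPs, and its groups overlapped because WT MPPs lay above Bcl11a-/- GMPs. All 12 genes over 2-fold higher in both had a higher WT signal in MPPs than in GMPs, against 46.4% of ranked genes. In 9 of the 12 the WT and Bcl11a-/- signals did not overlap, against 21.3% of ranked genes, and 7 differed more in GMPs. The 12 were picked on the same differences, so that these counts describe them only.

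**Figure D2:**
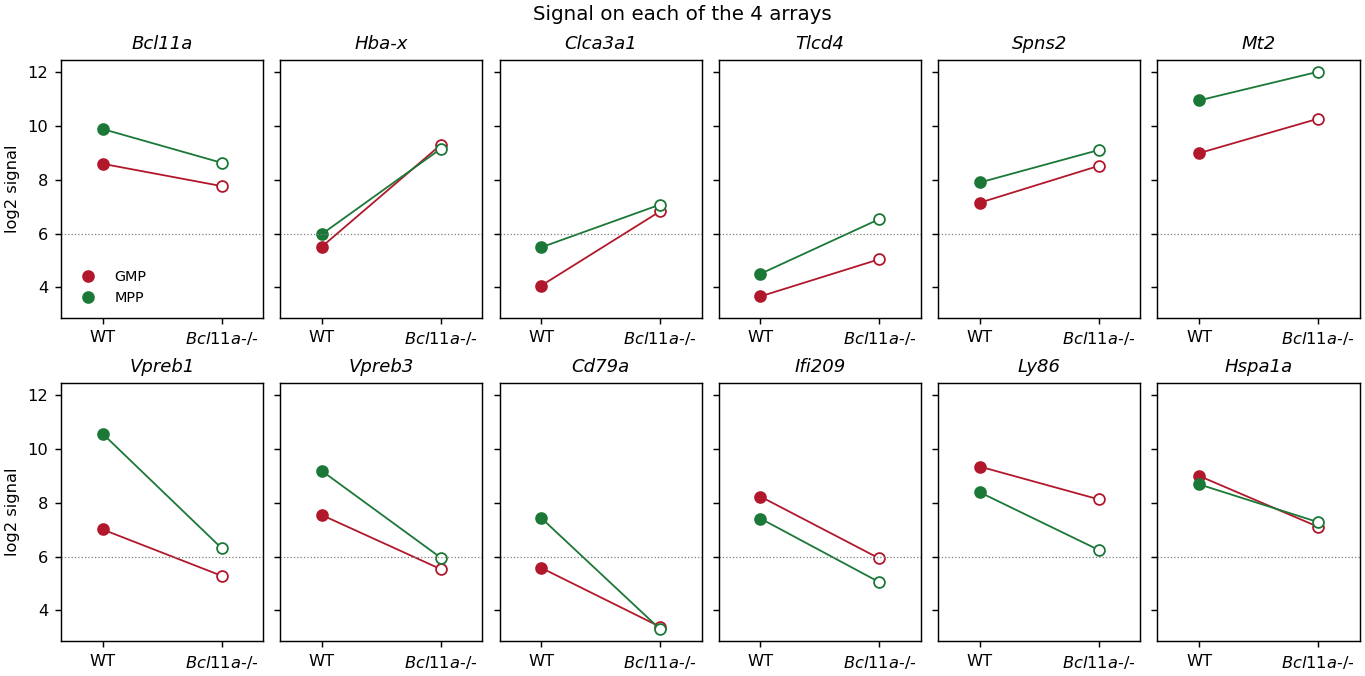
Log2 signal (vertical axis) on each of the 4 arrays for Bcl11a and 11 genes over 2-fold in the same direction in both populations, WT filled and Bcl11a-/- open, with a line joining the arrays of 1 population and a dotted line at the ranking level of 6. Hba-x was below 6 in WT and above 9 in Bcl11a-/- in both populations, and Mt2 kept a gap between MPPs and GMPs in both genotypes.

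Of the 16 genes over 2-fold lower in both populations, 6 belonged to the B lineage list, and the 4 lowest means were among them. Cd79a, the signaling chain Igα of the B cell receptor, had the lowest mean. Its signal was 5.59 in WT and 3.39 in Bcl11a-/- GMPs, 7.44 in WT and 3.30 in Bcl11a-/- MPPs, so that both Bcl11a-/- arrays were at a similar low value. The mean was −3.17 ± 0.97, or 8.97-fold lower. Vpreb1, which with Igll1 forms the surrogate light chain of pre-B cells, had 7.01 and 5.29 in GMPs and 10.57 and 6.32 in MPPs, with a mean of −2.99 ± 1.27. Vpreb3 had 7.55 and 5.54 in GMPs and 9.19 and 5.96 in MPPs, with a mean of −2.62 ± 0.61 or 6.15-fold lower. For these 3 genes both WT arrays lay above both Bcl11a-/- arrays, and the difference was larger in MPPs, where the WT signal was higher. Ebf1, the transcription factor that starts the B cell program, had 5.04 and 3.88 in GMPs and 7.72 and 3.89 in MPPs. Its mean was −2.50 ± 1.34, and only WT MPPs stood above 6. With signals under 5 set to 5, the mean was −1.51 for Cd79a and −1.38 for Ebf1. Neither was then over 2-fold lower in both, nor were Dntt, Il7r, Ms4a1, a small nucleolar RNA and a kappa variable segment, which left 9 of the 16.

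The gap was small for Ifi209, an Ifi200 family gene induced by interferon. Its signal was 8.24 in WT and 5.93 in Bcl11a-/- GMPs, 7.42 in WT and 5.05 in Bcl11a-/- MPPs. The mean was −2.34 ± 0.03 or 5.05-fold lower (adjusted p = 0.119 in limma), a smaller gap than for Cd79a, Vpreb1, Vpreb3 and Ebf1. Ifi202b of the same family had a mean of −1.05 ± 0.08 (−0.68 with the floor at 5), and the interferon-inducible Ifi27l2a had −1.57 ± 0.34, more in GMPs. Iigp1, also induced by interferon, was higher in both. Over the 23 measured genes of the interferon list, 12 were lower in both and 4 higher in both, with a median of −0.31.

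Further genes over 2-fold lower in both came from lymphoid, myeloid and stress groups. Dntt, the polymerase that adds bases at V(D)J joints, had a mean of −2.15 ± 0.86, and Il7r, the receptor for a cytokine needed by early lymphoid cells, −2.08 ± 0.73. Ms4a1, which encodes CD20, had −2.02 ± 0.56. With the floor at 5 the mean was −1.10 for Il7r and −0.72 for Ms4a1. The transcription factor Spib, used by pDCs and B cells, had 6.38 and 5.33 in GMPs and 7.15 and 5.66 in MPPs, a mean of −1.27 ± 0.22. Ly86, also called MD-1, a binding partner of a Toll-like receptor homolog, had 9.35 and 8.13 in GMPs and 8.40 and 6.25 in MPPs. Its mean was −1.68 ± 0.46, and WT MPPs lay only just above Bcl11a-/- GMPs. The chemokine Ccl3 had a mean of −1.66 ± 0.48, and Ms4a4c −1.22 ± 0.13. The heat shock protein gene Hspa1a had 9.01 and 7.11 in GMPs and 8.69 and 7.29 in MPPs, a mean of −1.65 ± 0.24. A second probe set, shared with its near-identical copy Hspa1b, had −1.65 ± 0.21, so that the 2 genes cannot be told apart. The small nucleolar RNA and the immunoglobulin kappa variable segment completed the 16. For 15 of the 16 the WT and Bcl11a-/- signals did not overlap, against 21.3% of ranked genes. A higher WT signal in MPPs than in GMPs was seen for 9, against 46.4% of ranked genes, and 7 reached a signal under 5. The 16 were picked on the same differences, so that these counts describe them only.

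**Figure D3:**
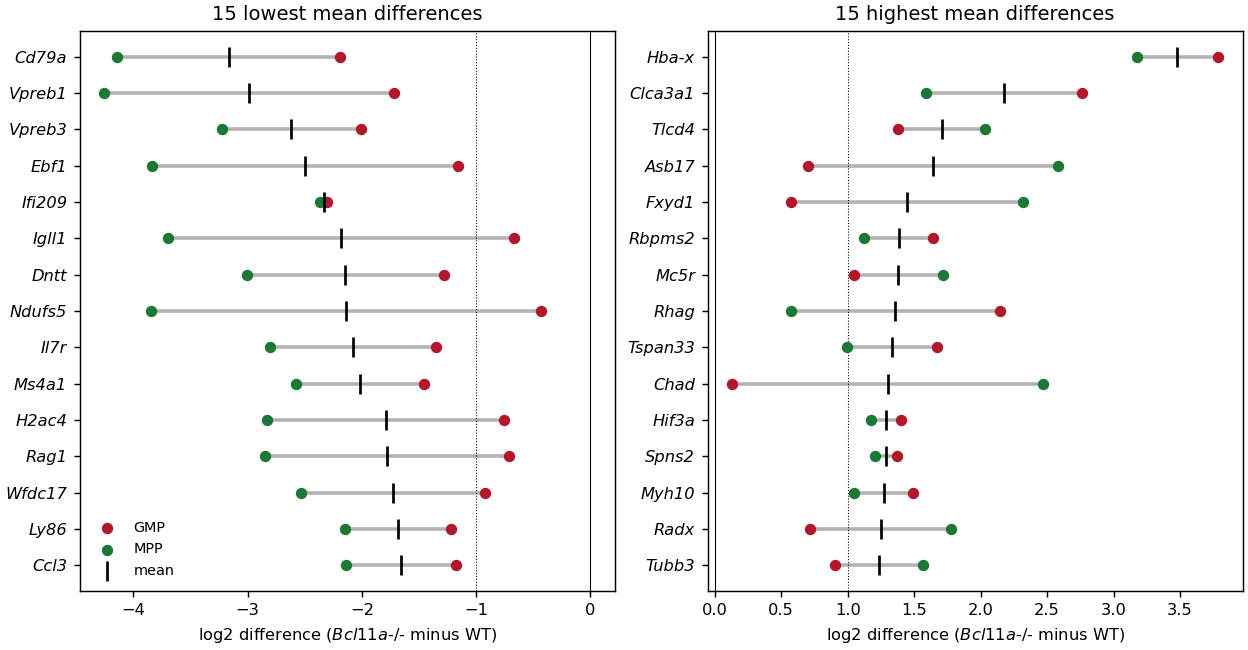
Log2 differences of the 15 named genes with the lowest mean (left) and the 15 with the highest (right), with GMPs in red, MPPs in green and the mean as a black tick; the grey bar is the whole gap, and a dotted line marks 2-fold. Ifi209 and Spns2 had almost equal differences, while those of Ndufs5 and Chad came mostly from MPPs.

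A mean over 2-fold was not always a difference of both populations. Of the 73 lower genes, 62 had the same sign in both, but 50 were over 2-fold in MPPs only, 7 in GMPs only, and 37 were under 1.5-fold in GMPs. Their median population spread was 0.88, and for 34 it was over 1. Of the 38 higher genes, 37 had the same sign in both, 17 were over 2-fold in MPPs only and 9 in GMPs only, and the median population spread was 0.34, over 1 for 3 of them. Ndufs5, a subunit of respiratory complex I, had 9.96 and 9.53 in GMPs and 9.42 and 5.57 in MPPs. Its mean of −2.14 ± 1.70 was thus carried by Bcl11a-/- MPPs alone, and a probe set it shares with a pseudogene had −0.52 ± 0.40. The granule protease gene Prtn3 had 13.05 and 12.90 in GMPs and 11.34 and 8.69 in MPPs, a mean of −1.40 ± 1.25. Among higher genes, the cartilage matrix gene Chad had 5.04 and 5.17 in GMPs and 5.24 and 7.71 in MPPs, a mean of 1.30 ± 1.17. Rhag, a red cell membrane protein, was the reverse case, with 5.21 and 7.36 in GMPs and 6.50 and 7.08 in MPPs and a mean of 1.36 ± 0.78.

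Genomic span, the distance from the first to the last base of a gene in RefSeq, was set beside these differences. Of genes lower by the mean 76.5% of 68 with a known span were shorter than the median ranked gene, and of genes higher by the mean 51.4% of 35. The share was 64.3% of 14 genes lower in both and 33.3% of 12 genes higher in both. Among genes under 1.5-fold in GMPs it was 88.9% of the 36 that were lower by the mean, and 4 of 5 that were higher. Among genes under 1.5-fold in MPPs it was 1 of 2 that were lower and 1 of 3 that were higher. Over 9753 ranked protein-coding genes the Spearman correlation with span, a description across genes, was 0.12 for the MPP difference, −0.07 for the GMP difference, 0.07 for the mean and −0.10 for the population spread. The part of span in these differences was not tested.

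At the threshold, the named genes just inside 2-fold higher were Etv4 (1.004 ± 0.01) and Cxcl9 (1.02 ± 0.38), and just outside were Tnik (0.996 ± 0.29) and Klf1 (0.99 ± 0.70). On the lower side Ppp1r14b (−1.001 ± 1.24) and Imp3 (−1.01 ± 1.06) were just inside, and Ms4a6c (−0.996 ± 0.13) and Mrpl23 (−0.996 ± 0.76) just outside. Genes of equal mean on either side of the threshold thus differed widely in their gap.

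Gene groups were read over every measured member, with no filter on signal, beside all 19938 annotated genes, of which 31.4% were higher in both, 23.7% lower in both and 44.4% of opposite sign, with a median mean of 0.03. Over all annotated genes the mean was over 2-fold lower for 0.396% and higher for 0.246%, and 0.0953% were over 2-fold lower in both and 0.0752% higher in both. In the lists below no gene had an adjusted p under 0.05 in limma.

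Erythroid genes were higher. All 26 measured members had a mean above 0, 20 were higher in both populations and none was lower in both, with a median mean of 0.64. Of these 26, 6 had a mean over 2-fold higher, and Tlcd4 alone was over 2-fold in both, which rested on WT signals of 3.67 and 4.51 and was lost with the floor at 5. The median difference was 1.002 in GMPs and 0.41 in MPPs. Gata1, the master regulator of red cell and platelet precursors, had 6.44 and 7.47 in GMPs and 6.79 and 7.19 in MPPs, a mean of 0.71 ± 0.32. Klf1, the erythroid factor that activates adult β-globin, had 6.44 and 8.13 in GMPs and 7.82 and 8.12 in MPPs, so that WT GMPs were the low array. Car1, a carbonic anhydrase of red cells, had 10.38 in WT GMPs and from 12.20 to 12.54 on the other 3 arrays. Ermap (1.09 ± 0.64) and Car2 (1.14 ± 0.18) were also over 2-fold by the mean, while Nfe2 was at 0.03 ± 0.03. Cldn13 differed in direction, by 1.75 in GMPs and −1.05 in MPPs. The adult globin probe sets had mean differences between −0.29 and −0.11. Each was higher in Bcl11a-/- GMPs (0.11 to 0.22) and lower in Bcl11a-/- MPPs (−0.80 to −0.37). Their signals lay between 11.93 and 13.20, where the highest of any annotated gene was 13.41.

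Megakaryocyte and platelet genes had a median mean of 0.34 over 16 members, 11 of them higher in both, 2 lower in both and 3 of opposite sign. Gp5 was at 0.84 ± 0.02 and the thrombin receptor F2r at 0.86 ± 0.18, while Plek was lower in both (−0.39 ± 0.21). The platelet marker Pf4 differed by 1.20 in MPPs and −0.35 in GMPs. Stem cell genes had a median of 0.15 over 21, with 11 higher in both; Gata2 had 7.68 and 8.88 in GMPs and 7.56 and 8.49 in MPPs, a mean of 1.06 ± 0.13, with no overlap between the groups. Heme synthesis and iron genes had a median of 0.15 over 16, from the porphyrin enzyme Cpox (1.13 ± 0.17) and Alas2, the first enzyme of erythroid heme synthesis (0.62 ± 0.03), down to the ferritin light chain Ftl1 (−1.06 ± 1.15). The 4 probe sets that Ftl1 shares with other symbols had means between −0.12 and −0.07. Of the 15 regulators of globin switching, a list that holds Bcl11a and Klf1, 5 were higher in both and 4 lower in both (median 0.04, and −0.01 after lowess centring). The fetal RNA-binding protein Igf2bp3 was lower in both (−0.89 ± 0.01) and Myb was at 0.17 ± 0.08. Among 18 NuRD subunits and Bcl11a partners 6 were higher in both and 6 lower in both (median −0.09, and 0.07 after new quantile normalization), with Gfi1b, a repressor of erythroid and platelet precursors, at 1.04 ± 0.29.

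B lineage genes were the lowest list, with a median mean of −0.73 over 26. Of these, 18 were lower in both populations and 2 higher in both, 10 had a mean over 2-fold lower and 6 were over 2-fold lower in both. The median signal of the list was 5.58 in WT and 5.31 in Bcl11a-/- GMPs and 6.82 in WT and 5.58 in Bcl11a-/- MPPs, so that only WT MPPs stood apart. Pax5, which commits cells to the B lineage, had 6.14 and 5.45 in GMPs and 7.75 and 5.74 in MPPs, a mean of −1.35 ± 0.66. Blnk, an adaptor of the pre-B cell receptor, was at −1.65 ± 1.01 and Cd79b at −1.05 ± 0.45, while the mature B cell receptor genes Cr2 and Fcer2a were at 0.02 ± 0.02 and 0.03 ± 0.23. The 19 lymphoid priming genes had a median of −0.30, with 11 lower in both, 4 with a mean over 2-fold lower and Dntt and Il7r over 2-fold in both. Rag1 was at −1.78 ± 1.07 with 3 of 4 signals under 5 (−0.63 with the floor at 5), and Flt3, the receptor for a ligand that drives lymphoid and dendritic cell development, at −0.94 ± 0.66, mostly from MPPs.

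Plasma cell and immunoglobulin constant genes measured alone had a median of −0.15 over 9, with 4 lower in both, 2 higher in both and 3 of opposite sign. Jchain was at −1.28 ± 0.51 and Igha at −1.24 ± 0.30, both lower in each population, while Prdm1 was higher in each (0.36 ± 0.05). Jchain signals lay between 3.19 and 5.21, and with the floor at 5 its mean was −0.11 and its GMP difference 0. Probe sets shared by Iglc1 and lambda variable genes had means of −1.98 ± 0.10 and −1.64 ± 0.80, and 4 shared by Igkc and kappa variable genes lay between −1.59 and −1.19. Those that Igha shares with other symbols ranged from −1.27 ± 0.39 to 0.14 ± 0.57, and those also shared by Ighg3 were at −0.04 ± 0.40 and 0.14 ± 0.57. Ighm, which marks B cells from an early stage, was under 5 on all 4 arrays. pDC genes had a median of −0.37 over 16 with 7 lower in both, classical DC genes −0.04 over 17 with 7 lower in both, and MHC class II genes −0.01 over 10 with 4 lower and 4 higher in both. T and NK lineage genes had a median of −0.07 over 24, with 10 lower in both, 5 higher in both and 9 of opposite sign. Ccl5 (−0.77 ± 0.07) and Thy1 (−0.57 ± 0.04) were lower in both, while Cd3d differed by 1.07 in MPPs and −0.32 in GMPs. The defining marker Ncr1 was under 4 on all arrays, but Nkg7 lay between 9.31 and 11.84.

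Myeloid lists differed in how far the populations shared a direction. GMP and primary granule genes had a median of −0.32 over 19, with 10 lower in both and 5 over 2-fold lower by the mean. Of those 5 only Ly86 was over 2-fold in both, and for Prtn3, Ms4a3, Elane and Ctsg the GMP difference was between −0.17 and 0.07. Late neutrophil genes had a median of 0.08 over 18, of which 13 had opposite signs in the 2 populations. Monocyte and macrophage genes had a median of −0.11 over 22, with 9 lower in both, 1 higher in both and 12 of opposite sign. The receptor Csf1r was at −0.66 ± 0.11. The macrophage markers Adgre1 and C1qa lay between 5.17 and 5.78, while C1qc differed by 1.39 in MPPs and −0.49 in GMPs. Eosinophil, basophil and mast cell genes had a median of −0.01 over 19, in which the eosinophil granule protein Prg2 (−1.01 ± 0.29) and Gata2 were on opposite sides.

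The remaining lists had medians between −0.42 and 0.05. Immediate early and heat shock genes had a median of −0.32 over 23, 15 lower in both, with Atf3 at −0.60 ± 0.01 beside Hspa1a. Mitosis genes had −0.25 over 19, 13 lower in both, and DNA replication genes −0.19 over 20, 12 lower in both and none higher in both. The respiratory chain and proteasome list had −0.42 over 23, with a median of −0.73 in MPPs and −0.10 in GMPs. p53 target and BCL2 family genes were at 0.04 over 17, stroma and endothelium genes at −0.03 over 17 and sex chromosome genes at 0.05 over 4. Xist lay between 10.86 and 11.80 on all arrays and the Y-linked genes measured alone between 2.38 and 3.73.

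**Figure D4:**
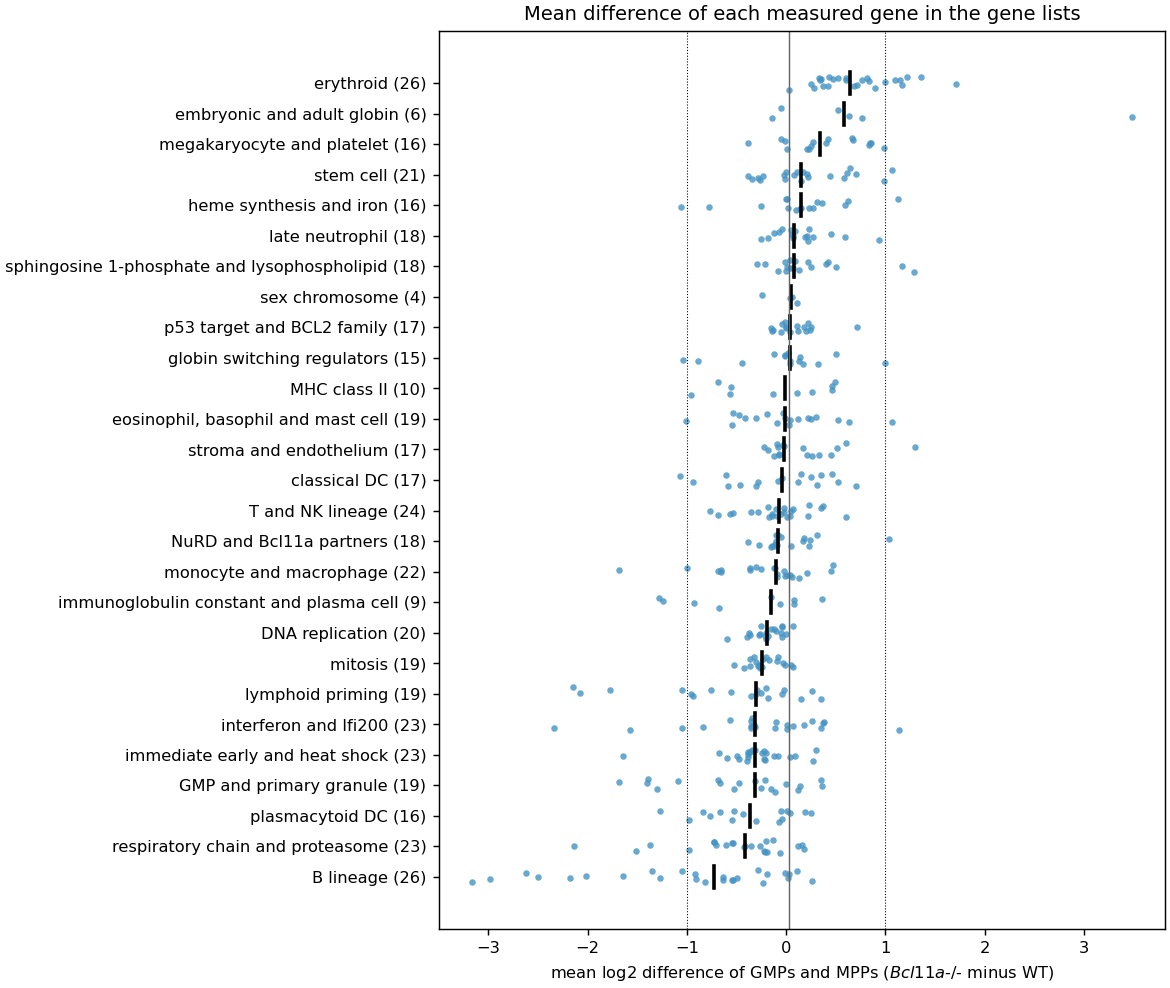
Mean log2 difference (horizontal axis) of each measured gene, as a point, in the 27 gene lists, with the number of measured genes in brackets, the list's median as a black bar, the median of all genes as a grey line and 2-fold as dotted lines. All 26 erythroid genes lie above 0, and the B lineage list has the lowest median at −0.73.

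Hba-x and Ebf1 lie on the chromosome of the targeted gene. Hba-x stood 19 places and Ebf1 43 places from Bcl11a in the order of ranked genes on chromosome 11, where a targeted allele can carry flanking sequence of another mouse strain. Among the 100 ranked genes within 50 places of Bcl11a they were the only genes with a mean over 2-fold, and the median size of the mean difference there was 0.18, against 0.17 over all placed ranked genes. Of the other genes over 2-fold the same way in both populations, Myh10 (203 places away), Spns2 (283) and Ccl3 (402) were on the same chromosome. Chromosome 11 held 8.95% of placed ranked genes and 5 of the 50 genes with the highest mean, as well as 5 of the 50 with the lowest. Whether flanking sequence had a part in any of these values was not tested.

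**Figure D5:**
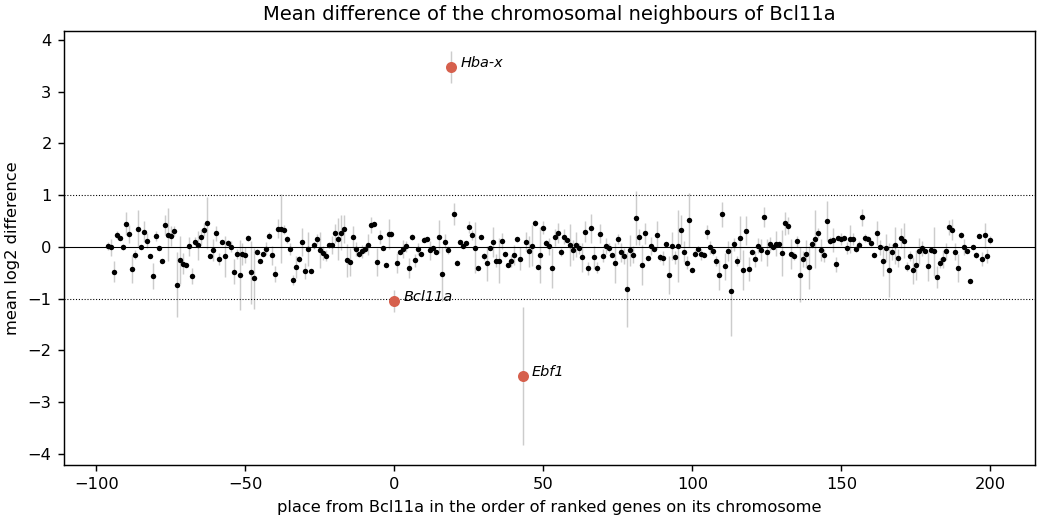
Mean log2 difference (vertical axis) of ranked genes by their place from Bcl11a in gene order on its chromosome, up to 200 places away, with a grey line from the lower to the higher of the GMP and MPP differences; dotted lines mark 2-fold. Hba-x (3.48), Bcl11a (−1.04) and Ebf1 (−2.50) stand apart from neighbours that lie near 0.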

How the data were processed

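RNA of sorted, pooled donor-derived cells was amplified (Ovation PicoSL), labeled with biotin and hybridised to 1 array per group. The authors summarised probe sets by RMA with quantile normalization in ArrayStar (version and annotation build not given in the sources used here), and the deposited values are log2 signals. Quantile normalization can hide a change in total mRNA per cell. No columns of values were left unmapped (0).

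Probe sets with 1 symbol were averaged per gene, and genes with a log2 signal of 6 or more on at least 1 array were ranked by the mean of the 2 population differences. limma 3.58.1 in R 4.3.3 (population + genotype, eBayes) was run over all 19938 genes with Benjamini-Hochberg adjustment. Its p-values set a mean against the gap between the populations, combined with the gaps of all genes, and do not measure the spread between mice. Scaling, filters, thresholds and fits were varied. The precision is limited by 1 array per group. Members, the 27 lists and tests were chosen with earlier results of these data known. Named genes were Bcl11a, the markers, the 15 largest means per direction, genes over 2-fold in both populations, up to 4 per list and direction, the 5 smallest gaps per direction and genes beside the threshold; genes named outside this rule were chosen after their values were seen.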

Additional observations from a re-analysis of the deposited data

Results flagged for a closer look

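Cldn13, a claudin of red cell precursors, was the only ranked gene over 2-fold in opposite directions in the 2 populations. Its log2 signal was 5.77 in WT and 7.52 in Bcl11a-/- GMPs, a difference of 1.75, and 7.84 in WT and 6.79 in Bcl11a-/- MPPs, a difference of −1.05. The difference between populations was not tested, since each rests on 1 pair of arrays.

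Outside the annotated genes, 1 probe set with no gene symbol was over 2-fold higher in both populations, at 5.34 and 7.44 in WT and Bcl11a-/- GMPs and at 5.48 and 7.04 in WT and Bcl11a-/- MPPs. Its mean difference was 1.83 ± 0.27. In the other direction, 5 of 1798 probe sets with no symbol and a log2 signal of 6 or more were over 2-fold lower in both. Of 825 such probe sets with several symbols, 5 were over 2-fold lower in both and 0 higher.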

How the results depend on the processing

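Under new quantile normalization, a floor of 5, median centring, lowess centring and the brightest probe set, no named gene with a mean over 2-fold turned sign. The means of 38, 29, 17, 29 and 0 of the 217 named genes, in that order, moved by more than their population spread, and 5, 0, 2, 6 and 0 turned sign. List medians kept their sign except those of the globin switching regulators and of the NuRD and Bcl11a partners.

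In limma 0 genes passed, but Hba-x passed after new quantile normalization (adjusted p = 0.00663, 1 gene higher) and after lowess centring (0.0312, 1 gene higher). In a limma fit of ranked genes only, Hba-x was the 1 gene higher (adjusted p = 0.0257) and Ifi209 the 1 gene lower (0.0473). Hba-x was ranked only through its Bcl11a-/- arrays, so that its pass there only describes the fit. Without the population block the adjusted p of Hba-x in limma was 0.647, and with the floor 0.577. No Hba-x signal was under 5, and the floor left its mean at 3.48. Genes over 2-fold lower in both numbered 9 with signals floored at 5, which lost Cd79a, Dntt, Ebf1, Il7r, Ms4a1, a small nucleolar RNA and a kappa variable segment, and Tlcd4 among the 12 higher genes. New quantile normalization lost Spib, Cd55 and Slc18a2 from the genes over 2-fold in both, and median centring lost Slc18a2. Genes lower in both numbered 9 among genes with a mean signal of 6 or more, where 25 genes were higher by the mean. At 1.5-fold, 381 genes were lower and 170 higher by the mean, and 73 lower and 51 higher in both; at 3-fold these were 21, 4, 4 and 2. In alternatives added after seeing the data each pair stood alone; the GMP pair gave 39 genes lower, and the MPP pair 375 lower and 122 higher. Ranking by the smaller of the 2 differences kept 25 of the 50 lowest and 33 of the 50 highest genes. The causes were not tested. Signals under 5 limit how firmly folds such as that of Cd79a can be read.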
